A study of Danio rerio with 6 samples.

Results

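NOD1 and NOD2 are intracellular receptors of the NLR family that bind fragments of bacterial peptidoglycan, and RIPK2 is the kinase that joins them to the rest of the cell. On binding a ligand the receptors recruit RIPK2 through CARD domains, ubiquitin ligases of the IAP family (BIRC2, also called cIAP1, and BIRC4, also called XIAP) attach ubiquitin chains to RIPK2, and the chains draw in the kinase TAK1. TAK1 then activates the IKK complex and MAP kinases, which leads to transcription of inflammatory genes through NF-kB and AP-1. These steps were worked out mainly in mammals and act on proteins, whereas only transcripts were measured here.

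Levels of these 6 transcripts (NOD1, NOD2, RIPK2, TAK1, BIRC2 and BIRC4) were read from a real-time PCR plate of 326 gene wells, 1 well per gene. Their wells were found by plate symbol, and all 6 were detected on every plate. The 6 genes were chosen with earlier results of these data known. The samples were whole embryos of the zebrafish, Danio rerio, taken 24 hours after fertilization, that had received a plasmid by microinjection. The control group received ptGFP1 without an insert and the NOD1 group received ptGFP1-NOD1, so both groups carried the ptGFP1 backbone. The sources used here do not give the promoter or the species of the insert. Each group had 3 plates, labelled as biological replicates, with RNA from pools of about 150 to 200 embryos. Nothing says whether a replicate was a separate clutch or injection, so the p-values measure the spread between these plates, which may be partly technical. In whole embryos a change in the number of cells that express a gene and a change in RNA per cell cannot be told apart.

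By accession, 5 of the 6 wells matched a current zebrafish gene in the RefSeq table of assembly GRCz12tu: nod1, ripk2, map3k7 for the well labelled TAK1, birc2, and xiap for the well labelled BIRC4. NOD2 matched nod2 by symbol. The name TAK1 has also been used for the nuclear receptor NR2C2, which has a well of its own on the plate.

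Each well gives a threshold cycle (Ct), the point where its fluorescence reaches a fixed value. Wells with more template reach it sooner, and a lead of 1 cycle stands for about 2-fold more if the product doubles each cycle. In control embryos TAK1 had the lowest mean Ct of the 6, with 23.23, 23.35 and 23.00 on replicates 1, 2 and 3. BIRC2 followed at 23.33, 23.32 and 23.07, and was the earlier of these wells on replicate 2. These wells differed within a plate by 0.048 ± 0.069 cycles (SD, n = 3), so their order in control was not resolved. BIRC4 came next, with control Ct values of 24.71, 24.86 and 24.78, and RIPK2 followed at 25.44, 25.41 and 25.26. BIRC4 was earlier than RIPK2 on each of the control plates, by 0.59 ± 0.14 cycles. The receptors were the latest wells, with NOD1 at 28.42, 28.69 and 28.46 and NOD2 at 28.89, 28.76 and 28.64. NOD1 was earlier than NOD2 by only 0.24 ± 0.21 cycles, between 0.068 and 0.47 on single plates. Each well has its own primers, with an efficiency that was not known here, so this order is one of Ct and not of transcript number.

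**Figure D1:**
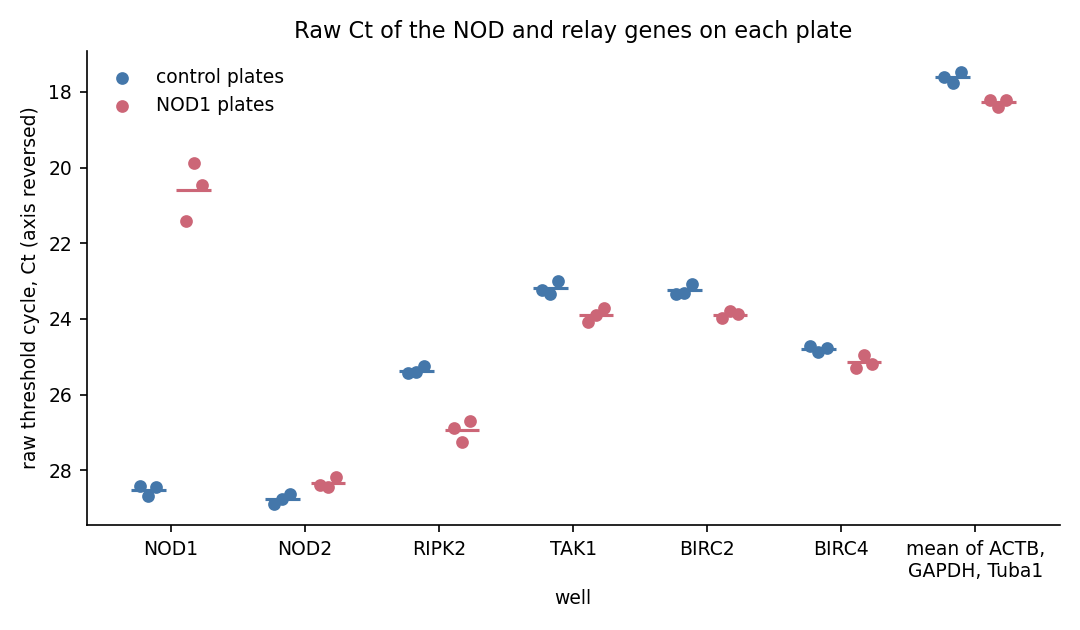
Raw Ct (reversed axis, cycles) of the 6 genes and of the mean of ACTB, GAPDH and Tuba1, with 1 point per plate, 3 control and 3 NOD1 plates, and a bar at each group mean. NOD1 moves from a mean of 28.52 to 20.58, RIPK2 from 25.37 to 26.94, and the mean of the reference genes from 17.61 to 18.27.

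In NOD1 embryos the NOD1 well had Ct values of 21.42, 19.88 and 20.46, and NOD2 had 28.39, 28.44 and 28.18. RIPK2 moved later, to 26.88, 27.25 and 26.69, a rise of 1.57 cycles over its control mean. TAK1 read 24.08, 23.90 and 23.71, BIRC2 23.98, 23.79 and 23.88, and BIRC4 25.30, 24.95 and 25.21. The wells used as reference, ACTB, GAPDH and Tuba1, were later as well, by 0.655 cycles on average (17.61 against 18.27; two-sided exact permutation p = 0.1, which is the lowest value possible with 3 plates against 3). A gene's relative level is the mean Ct of these reference genes minus its own Ct on the same plate, so a raw Ct later by about that amount leaves the relative level where it was. With limma on the raw Ct of all genes, each of the 3 reference genes was itself called later. The shifts were 0.47 cycles for ACTB, 0.87 for GAPDH and 0.63 for Tuba1 (limma adjusted p = 0.0334, 0.00430 and 0.00751). The plate software set no quality flag on any of the 36 wells of the 6 genes. Among the reference wells, Tuba1 on NOD1 replicate 3 carried 1 flag.

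Relative to the reference genes, the NOD1 and NOD2 wells read higher and the RIPK2 well lower in NOD1 embryos. TAK1, BIRC2 and BIRC4 did not pass the threshold (limma across the plate, Benjamini-Hochberg adjusted p under 0.05). Of the 6, 2 were thus called higher and 1 lower. Over all 319 genes tested 37.0% were called higher and 15.4% lower, 52.4% in either direction, so 3 calls among 6 genes is close to the share of the whole plate. The median difference was 0.15 on the log2-like scale over the 6 genes and 0.32 over all genes tested. The groups did not overlap for 4 of the 6, NOD1, NOD2, RIPK2 and BIRC4, against 63.9% of all genes (42.3% with the NOD1 plates higher and 21.6% with them lower). The injected gene itself, NOD1, is included in these counts and in the median of the 6.

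The injected gene, NOD1, was the largest rise on the plate. Its relative level was -10.81, -10.94 and -10.97 in control replicates 1, 2 and 3 and -3.20, -1.49 and -2.26 in NOD1 replicates 1, 2 and 3. The lowest NOD1 plate lay 7.61 cycles above the highest control plate. Its level was 8.59 ± 0.42 (SE) higher, or 386-fold with a 95% interval of 187-fold to 799.5-fold (adjusted p = 2.25e-04). This SE and interval assume the same spread in each group, but the SDs were 0.087 in control and 0.85 in NOD1 plates. An interval that allows unequal spread was not computed. Expressed against the reference genes, NOD1 went from 0.0497% to 0.0557% of their mean level in control plates to 10.9%, 35.6% and 20.9% in the NOD1 plates. These percentages assume doubling per cycle in every well. The primer efficiencies were not known, so they are not shares of transcript number. Between 219 and 226 gene wells had an earlier Ct than NOD1 on a control plate, and only 9, 5 and 6 had one on the NOD1 plates. NOD1 plates were also far more spread for this gene, with a range of 1.71 cycles, or 3.26-fold, against 0.17 cycles in control. Its SD among NOD1 plates, 0.85, exceeded that of 93.7% of the genes, while NOD2, RIPK2, TAK1 and BIRC2 had SDs of 0.099 to 0.20 there, below the plate's median of 0.24, and BIRC4 had 0.28. The well does not show whether its template came from the plasmid or from the embryo's own gene, and carry-over of plasmid DNA into the cDNA was not tested. The 18 wells for genomic DNA, 3 on each plate, gave no Ct, but they are not described as detecting the plasmid.

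NOD2, the sister receptor, was higher by a small and even step. Its relative level was -11.28, -11.01 and -11.16 in control and -10.17, -10.05 and -9.98 in NOD1 plates. The lowest NOD1 plate lay above the highest control plate, and the NOD1 plates differed among themselves by 0.20 cycles. The difference was 1.08 ± 0.13 (SE), or 2.11-fold with a 95% interval of 1.70-fold to 2.63-fold (adjusted p = 0.00176). It placed NOD2 at rank 100 of 319 from the largest rise. NOD2 is a late well, and late wells rose more often on these plates. When the genes were ranked by mean Ct into 4 bins, the bin from 26.62 to 28.89, where NOD2 lies, had 79 genes. There the median difference was 0.76 and 48.1% of the genes were called higher, against -0.11 and 11.2% in the bin with the earliest wells. NOD2 was 0.32 above the median of its bin. The part of this relation in the rise of NOD2 was not tested. With quantile scaling NOD2 differed by -0.091 (adjusted p = 0.345) and with cyclic loess scaling by 0.025 (adjusted p = 0.844), so the call was made with the scalings that shift all genes of a plate alike and not with these.

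RIPK2, the kinase that both receptors use, was lower in every NOD1 plate. Its relative level was -7.83, -7.66 and -7.77 in control and -8.67, -8.86 and -8.49 in NOD1 plates, with no overlap. The level fell by 0.92 ± 0.14 (SE) on the log2-like scale, so control embryos held 1.89-fold more, with the level in NOD1 embryos at 0.53 of control and a 95% interval of 0.42 to 0.67 (adjusted p = 0.00387). Only 24 genes had a more negative difference, since RIPK2 ranked 25 from the largest fall. Its bin, with mean Ct between 24.49 and 26.61, had a median difference of 0.14, so RIPK2 lay 1.06 below it. In that bin 23.8% of the genes were called lower, against 15.4% of all genes tested. RIPK2 was called lower under all 10 other scalings tried, at -1.57 to -0.43.

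**Figure D2:**
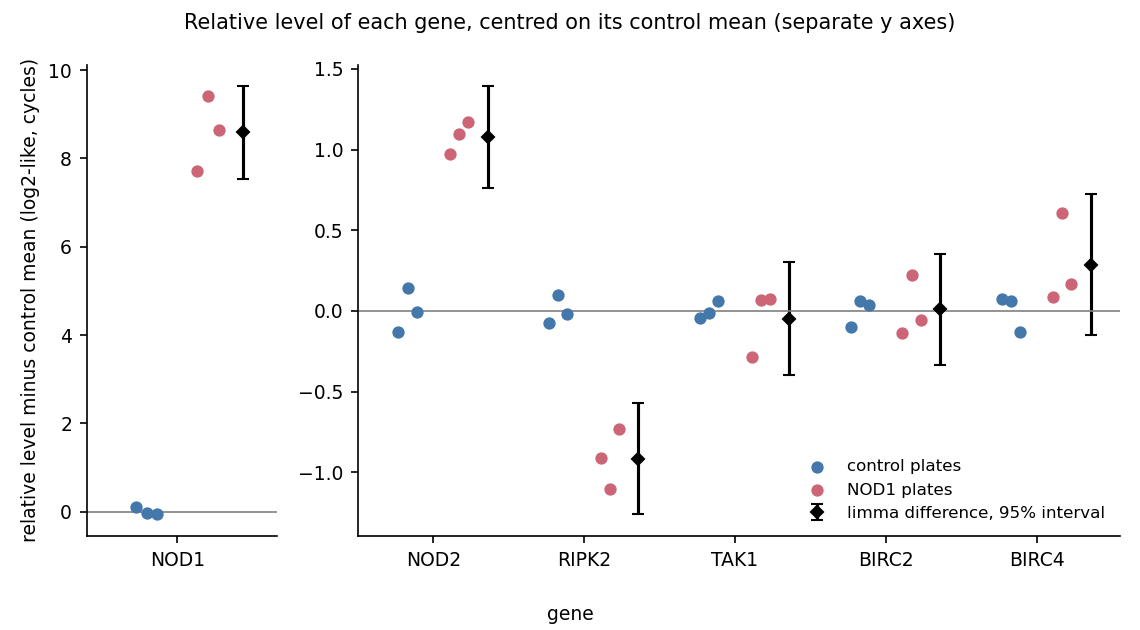
Relative level of each gene minus its own control mean (log2-like, cycles), with 1 point per plate and a black diamond for the limma difference with its 95% interval; NOD1 has its own axis on the left. NOD2 lies above and RIPK2 below all control plates, at 1.08 and -0.92, and the intervals of TAK1, BIRC2 and BIRC4 include 0.

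The remaining relay genes gave differences whose intervals include 0. TAK1, the kinase activated downstream of RIPK2, had relative levels of -5.62, -5.59 and -5.52 in control and -5.86, -5.51 and -5.51 in NOD1 plates. Replicate 1 of the NOD1 group was the lowest of the 6 plates and the other NOD1 plates were the highest. The difference was -0.049 ± 0.14 (SE; adjusted p = 0.791), with a 95% interval of -0.40 to 0.30.

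BIRC2, a ubiquitin ligase that modifies RIPK2 in mammals, had relative levels of -5.72, -5.56 and -5.59 in control and -5.77, -5.41 and -5.68 in NOD1 plates. The groups overlapped throughout. Its difference of 0.0085 ± 0.14 (adjusted p = 0.959) had a 95% interval of -0.34 to 0.35, which leaves room for a fold between 0.79 and 1.28.

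BIRC4, whose protein XIAP links RIPK2 to further ubiquitin ligases and also inhibits caspases, had relative levels of -7.09, -7.11 and -7.30 in control and -7.08, -6.56 and -7.00 in NOD1 plates. Its NOD1 plates all lay above the control plates, replicate 1 only barely, and replicate 2 stood highest. The difference of 0.29 ± 0.18 did not pass (adjusted p = 0.215), with a 95% interval of -0.15 to 0.72. Replicate 2 of the NOD1 group was the highest NOD1-group plate for NOD1, BIRC2 and BIRC4 and the lowest for RIPK2. Without that plate BIRC4 differed by 0.13 (adjusted p = 0.485), RIPK2 by -0.82 and NOD1 by 8.18.

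**Figure D3:**
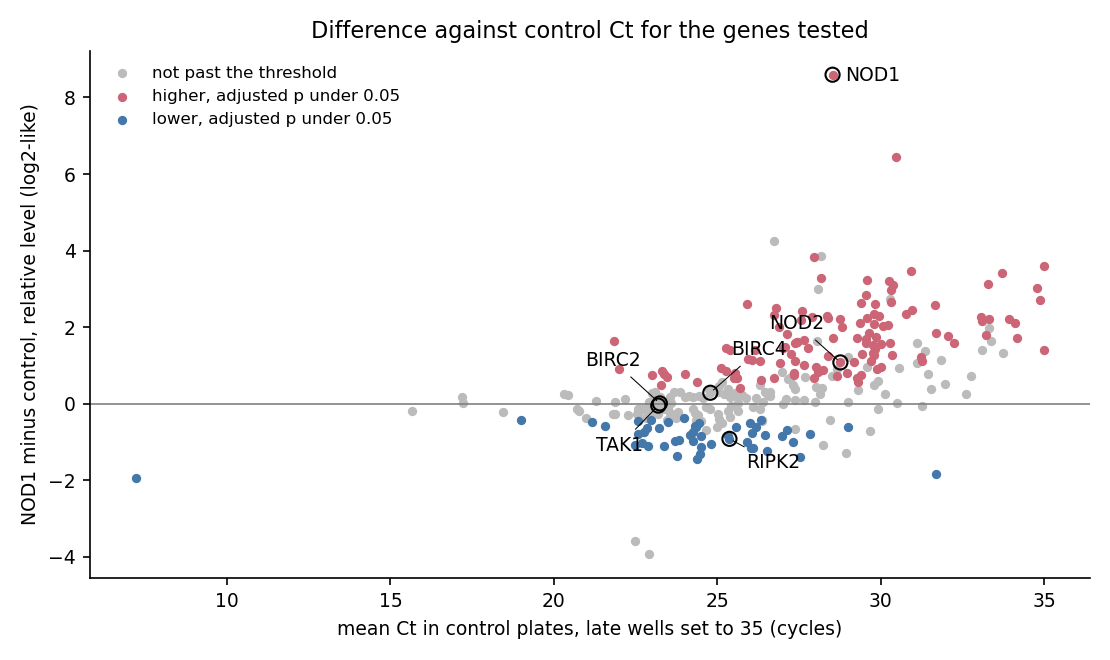
Difference of NOD1 from control (relative level, log2-like) against the mean control Ct for the 319 genes tested, coloured by call, with the 6 genes circled; the axes share the control plates. NOD1 stands alone at 8.59, NOD2 lies among many higher genes near a Ct of 28.76, and RIPK2 lies among the lower genes at 25.37.

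Because these differences lean on the reference genes, the 6 genes were also set against each other within each plate, where any scaling that shifts a whole plate cancels. Of the 15 pairs, 13 had no overlap between the groups. The exact permutation test gave p = 0.1 for each of these (two-sided, the smallest possible; 0.115 adjusted over the 15 pairs). Every pair with the injected NOD1 is among the 13, and the 15 pairs reuse the same 6 wells. Of single genes 63.9% did not overlap, and the share over all pairs of the plate was not computed, so the count is only a description. The ratio of NOD2 to RIPK2 shifted by 2.00 cycles, or 3.99-fold. The Ct of RIPK2 minus that of NOD2 was -3.45, -3.35 and -3.38 in control and -1.51, -1.19 and -1.49 in NOD1 plates. The shift lay between 1.89 and 2.05 when any single plate was left out, and it was 1.37 with quantile and 1.12 with cyclic loess scaling, which change levels unevenly within a plate.

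RIPK2 fell against each of the other relay genes. Relative to TAK1 it shifted by -0.87 cycles, relative to BIRC2 by -0.93 and relative to BIRC4 by -1.20, all without overlap. NOD2 rose by 1.13 against TAK1, 1.07 against BIRC2 and 0.79 against BIRC4, without overlap. With quantile scaling these 3 shifts turned to -0.084, -0.13 and -0.40, and with cyclic loess scaling to -0.033, -0.090 and -0.30, whereas those of RIPK2 stayed negative, at -1.77 to -1.16. TAK1 and BIRC2 kept nearly the same distance, with a shift of -0.057 cycles (exact permutation p = 0.7). TAK1 shifted by -0.34 against BIRC4 (exact permutation p = 0.2). BIRC2 was ahead of BIRC4 by 1.37 to 1.71 cycles in control and by 1.15 to 1.32 in NOD1 plates, a shift of -0.28. NOD1 gained between 7.51 cycles on NOD2 and 9.51 cycles on RIPK2, so the ratio of the NOD1 well to the RIPK2 well rose 729-fold. The source of the template in the NOD1 well was not tested.

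**Figure D4:**
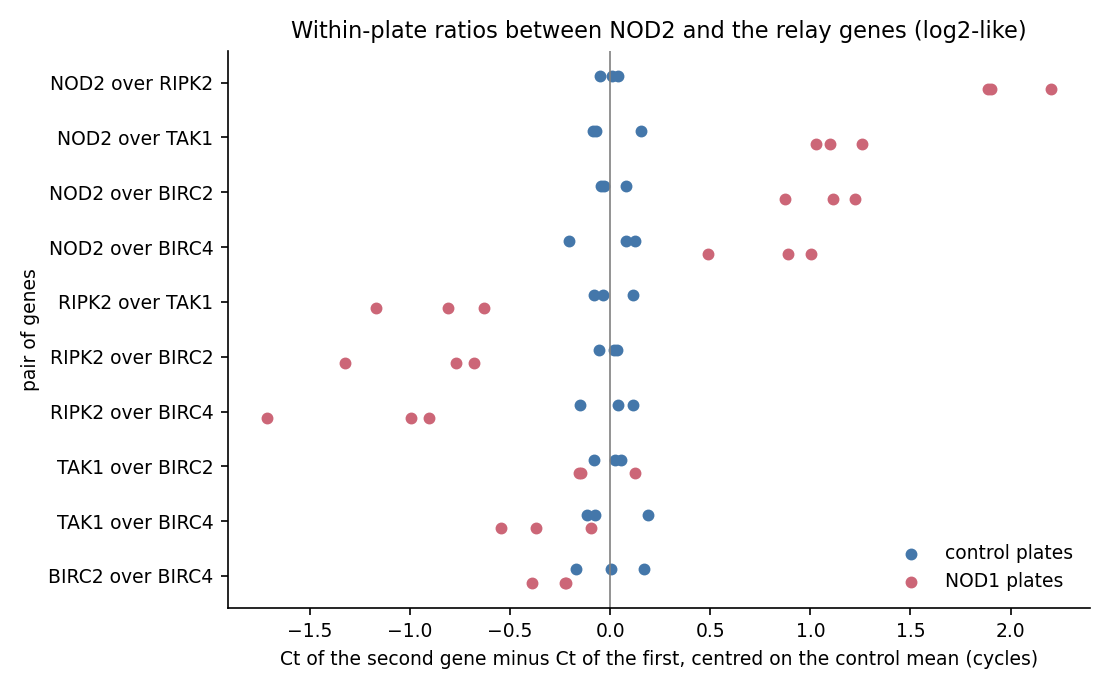
Ct of the second gene minus Ct of the first on the same plate, centred on the control mean of the pair (cycles), for the 10 pairs without NOD1, with 1 point per plate. NOD2 over RIPK2 shows the widest shift, 2.00 cycles, and TAK1 over BIRC2 the narrowest, -0.057.

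The direction of TAK1, BIRC2, BIRC4 and NOD2 turned with the scaling in at least 1 setting. On raw Ct, TAK1 differed by -0.70 and BIRC2 by -0.65 (adjusted p = 0.0116 and 0.00851), and with 18S rRNA added to the reference genes they differed by 0.44 and 0.50 (adjusted p = 0.0194 and 0.0121). BIRC4 ran from -0.37 on raw Ct to 0.77 with 18S rRNA added, where it passed (adjusted p = 0.00636). The 18S rRNA well itself was 2.60 cycles later in NOD1 plates and B2M 1.12 cycles later. The plate software set a quality flag on the 18S rRNA well of control replicates 1 and 3. NOD2 was called higher under 8 of the 10 other scalings, at 0.42 to 1.57, and turned to -0.091 with quantile scaling. NOD1 was called higher under all 10, at 7.94 to 9.08. Control and NOD1 plates shared no run day (2 days for control, 1 for NOD1, per the file headers), and the effects of run and plasmid cannot be told apart.

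**Figure D5:**
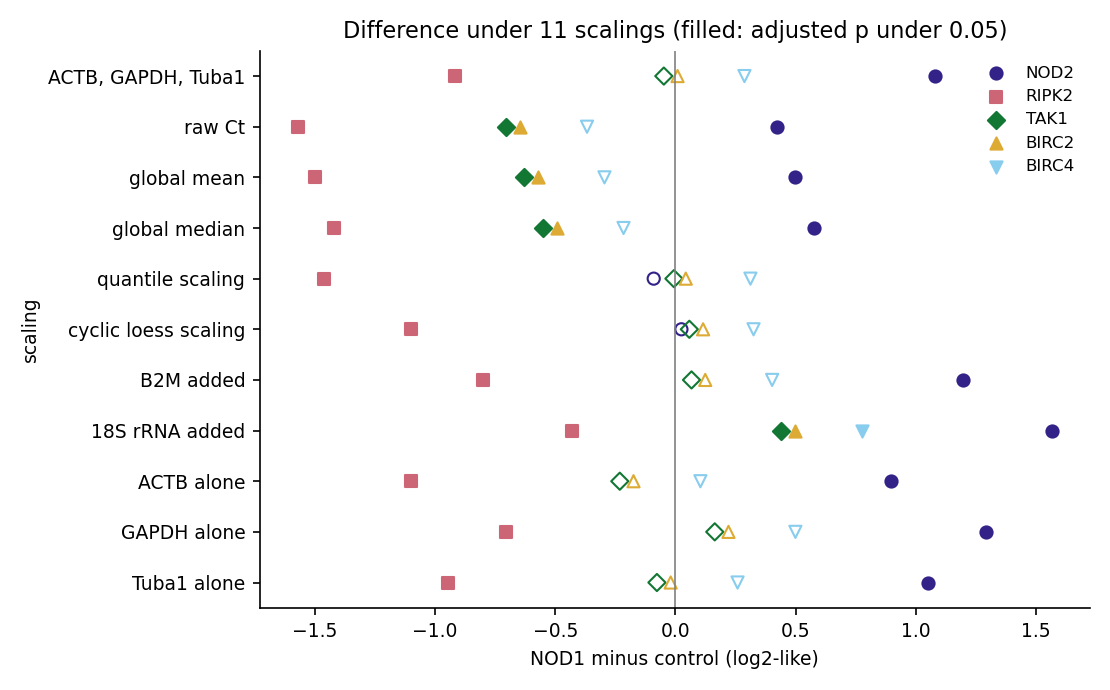
Difference of NOD1 from control (log2-like) for NOD2, RIPK2, TAK1, BIRC2 and BIRC4 under 11 scalings, filled where the adjusted p was under 0.05. RIPK2 is filled and left of 0 in every line, NOD2 is open near 0 with quantile and cyclic loess scaling, and TAK1, BIRC2 and BIRC4 change sides.

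The genes that act around the relay went several ways, and their counts are set beside the plate's own shares of 37.0% higher and 15.4% lower. Of 5 TAK1 partners and ubiquitin ligases matched by exact plate symbol, 2 were called higher, 0 lower and 3 did not pass. The list's median difference was 0.23, against 0.32 over all genes, and its share called higher is close to that of the plate. The paralog wells TRAF2a, TRAF2b, TRAF4a and TRAF4b were not counted. Of these, TRAF2b fell by 0.77 ± 0.15 (adjusted p = 0.00837), and TRAF2a, TRAF4a and TRAF4b did not pass. BIRC6, a very large IAP-family protein that inhibits apoptosis, rose by 2.45 ± 0.12 (adjusted p = 2.25e-04), and by 1.14 to 2.94 over the alternatives. It is a late well, with a mean control Ct of 30.94. In the bin with the latest wells the median difference was 1.42 and 62.5% of the genes were called higher. MAP3K7IP1, which encodes TAB1, a subunit that activates TAK1, rose by 0.76 ± 0.25 at an adjusted p of 0.0499, a call lost under 13 of 22 alternatives (adjusted p = 0.0508 to 0.722). TRAF3, another ubiquitin ligase of innate signalling, had a difference of -0.36 ± 0.14 (adjusted p = 0.0783), which did not pass. On raw Ct and with the global mean or median the same 5 genes gave 1 higher and 3 lower.

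Of 10 genes of the IKK and NF-kB list, 4 were called higher and 2 lower, and 4 did not pass, with a median difference of 0.070. Both shares are close to those of the plate. TBK1, a kinase of the interferon pathway related to IKK, rose by 1.61 ± 0.18, and by 0.95 to 2.09 over the alternatives. BCL3, a nuclear member of the IkB family, rose by 1.29 ± 0.35, a call lost under 10 of 22 alternatives (adjusted p = 0.0541 to 0.240). NFKBIA, the inhibitor that NF-kB itself induces in mammals, rose by 0.85 ± 0.17, but not with raw Ct, the global mean or the global median (adjusted p = 0.131 to 0.475). The catalytic IKK subunits did not pass, with CHUK at 0.048 ± 0.15 and IKBKB at -0.096 ± 0.16. However, CHUK was -0.61 and IKBKB -0.75 on raw Ct (adjusted p = 0.0155 and 0.0143), and with 18S rRNA added they were 0.53 and 0.39 (adjusted p = 0.0126 and 0.0507). Both were also called lower with the global mean and the global median. IKBKB was called lower with quantile scaling (-0.61, adjusted p = 0.0223) and cyclic loess scaling (-0.39, adjusted p = 0.0449), whereas CHUK, at 0.11 and 0.15, did not pass there. The regulatory subunit IKBKG fell by 0.42 ± 0.14 (adjusted p = 0.0455), a call lost under 8 of 22 alternatives (adjusted p = 0.0861 to 0.374), and it turned to 0.070 with 18S rRNA added. IKBKE, the other gene called lower, had the list's largest fall, 0.82 ± 0.22 (adjusted p = 0.0225). NFKB1 rose by 0.56 ± 0.17 (adjusted p = 0.0390), and RELA, at -0.37 ± 0.15, did not pass (adjusted p = 0.0777). The list's count turned to 1 higher and 5 lower on raw Ct and with the global mean or median. Over the whole plate lower calls also outnumbered higher ones there, at 134 lower and 71 higher on raw Ct. Without any single control plate 0 genes of the list were called lower by limma, against 31 to 33 over the whole plate. The count of higher genes was 2 without control replicate 1, without NOD1 replicate 2 or without NOD1 replicate 3.

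Of 15 MAP kinase and AP-1 genes matched by exact symbol, 2 were called higher and 3 lower, and 10 did not pass, with a median difference of -0.24. The paralog wells MAP2K2a and MAP2K2b were not counted. MAP2K2b rose by 0.78 ± 0.13 (adjusted p = 0.00451), and MAP2K2a, at -0.14 ± 0.13, did not pass. JUNB, an AP-1 subunit, rose by 1.41 ± 0.19, between 0.76 and 1.90 over the alternatives. MAPK10, a JNK family kinase, fell by 1.31 ± 0.22, with alternatives between -1.96 and -0.82. MAP2K6, a kinase upstream of p38, had a difference of -3.92 ± 3.16 that did not pass (adjusted p = 0.329). Of its NOD1 wells 1 was at the ceiling of 35 cycles, and the SD among them was 6.56. Without that well, on NOD1 replicate 3, the difference was -0.14 (adjusted p = 0.541). The list's counts became 2 higher and 11 lower with the global mean, and 5 higher and 2 lower with 18S rRNA added. Over all 319 genes the counts also moved, to 77 higher and 136 lower with the global mean. With 18S rRNA added the plate had 195 higher and 18 lower. Of the 4 genes listed as inhibitors, 0 were higher and 1 was lower by limma, with a median difference of 0.15. Adding 18S rRNA gave 3 higher and 0 lower, and raw Ct gave 0 and 2, where the whole plate had 71 higher and 134 lower. The counts were 1 and 1 with the replicate block, the run-day block or without NOD1 replicate 1. The gene called lower was NLRX1, a mitochondrial NLR, which fell by 0.60 ± 0.13 but did not pass with GAPDH alone or with 18S rRNA added (adjusted p = 0.0845 and 0.493). CASP8 and SIGIRR differed by 0.57 ± 0.28 and 0.32 ± 0.27 and did not pass.

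Of 8 genes listed as NF-kB outputs, 5 were called higher and 0 lower by limma, against 37.0% and 15.4% of all genes tested. The list was chosen with earlier results of these data known, so its count is only a description. It names both tnfa and tnfb, and each of these wells was called higher. The list's median difference was 1.81, against 0.32 over all genes. By mean Ct, LTA lies in the bin with the latest wells, as do NOS2A, IL8 and IL10, which did not pass. There the median difference was 1.42 and 62.5% of the genes were called higher. The other genes called higher, IL1B, tnfa, tnfb and IL12a, lie in the bin from 26.62 to 28.89. That bin had a median difference of 0.76, with 48.1% of its genes called higher. The cytokine genes LTA, tnfa and IL12a rose 8.77-fold, 6.04-fold and 4.94-fold. With cyclic loess scaling the folds were smaller, at 2.70 for LTA, 2.81 for tnfa and 2.88 for IL12a. All 5 calls were kept in number under every scaling except quantile, which gave 4 (tnfa at 1.48, adjusted p = 0.0839). LTA is among the latest wells, with a mean control Ct of 33.28. The part of the relation between Ct and difference in the list's count was not tested. Of 19 leukocyte and red-cell markers listed, 3 were on the plate: SPI1 rose by 0.81, CSF1R fell by 1.17 and EPOR fell by 1.01. The rise of SPI1 was not called on raw Ct (0.16) or with the global mean, the global median or quantile scaling (adjusted p = 0.0628 to 0.484), nor without control replicate 3 (adjusted p = 0.0507). PTPRC, a pan-leukocyte gene on the plate that was not listed and was added after its value was seen, differed by -0.011 ± 0.14 (adjusted p = 0.952), and by -0.79 to 0.48 over the alternatives.

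For each of the 6 genes the most similar profiles were sought as the smallest root mean square distance over the 6 plates, after centring each gene on its control mean. The distance thus includes any gap between genes in their difference from control. Nearest distances for the other genes of the plate are not given, so these values are only a description. NOD1 had no close neighbour, the nearest being the chemokine CCL-C25y-like at 2.12 cycles, followed by the chemokine CXCL12a at 3.51. NOD2 was nearest to the cytokine IL15 and the interferon regulatory factor IRF2, at 0.10 and 0.11 cycles. RIPK2 was nearest to GJA1, a gap junction protein, and the JNK family kinase MAPK9, at 0.096 cycles each. TAK1 was nearest to IKBKB, at 0.061, and to TOLLIP, at 0.069. BIRC2 was nearest to Tuba1, 1 of the reference genes, at 0.092, and then TP53BP2, at 0.095. BIRC4 was nearest to MST1 and TRAF4a, at 0.049 and 0.057. These distances do not change with the reference genes used, but with quantile scaling that of IRF2 from NOD2 was 0.60 and that of GJA1 from RIPK2 was 0.51. TAK1 and IKBKB also parted in their difference from control. With quantile scaling they were at -0.0066 and -0.61, and with cyclic loess scaling at 0.058 and -0.39.

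The authors' deposited table gave the same folds for the 6 genes, 386 for NOD1, 2.11 for NOD2, 0.530 for RIPK2, 0.967 for TAK1, 1.01 for BIRC2 and 1.22 for BIRC4. Its unadjusted p-values, from the authors' deposited table, were 6.52e-05 for NOD1, 3.64e-04 for NOD2, 0.00151 for RIPK2, 0.710 for TAK1, 0.946 for BIRC2 and 0.178 for BIRC4.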

How the data were processed

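Real-time PCR plates of 6 pools of zebrafish embryos, 3 per group, were used. Per the file headers, SDS 2.3 read them at a manual threshold of 0.2 with an automatic baseline. The deposited score per well was the raw Ct. A second table held the authors' delta Ct, the deposited ratio or fold of the groups and the deposited p-value. Recomputed delta Ct values matched it for 326 of 326 genes within 1e-06 cycles, and an equal-variance test gave its p-values for 326 within a relative 1e-04.

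Here, Ct above 35 or undetermined was set to 35. Levels were taken relative to ACTB, GAPDH and Tuba1, whose Ct values were averaged on each plate. Genes under 35 on all plates of a group were kept (319 of 326) and compared with limma 3.58.1 in R 4.3.3, without a replicate block. The script was tested on simulated data. Named genes are the 6 members, the reference genes, the 3 largest differences of each list and the 2 nearest genes to each member. IKBKG, CHUK, IKBKB and PTPRC were added after their values were seen. So were IKBKE, NFKB1, RELA, the TRAF2, TRAF4 and MAP2K2 paralogs and the remaining NF-kB output genes. These are given at the main setting only, and some of them only by their call. Lists took whole plate symbols without regard to case, so paralogs such as TRAF2a were not counted. The wells tnfa and tnfb were both counted, because the NF-kB output list named each of them. The members and lists were chosen with earlier results of these data known. Alternatives covered scaling, late wells, filter, test and single plates.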

Additional observations from a re-analysis of the deposited data

How the results depend on the processing

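The calls of NOD1, NOD2 and RIPK2 held without any single plate (8.18 to 9.03, 1.01 to 1.15 and -1.01 to -0.82), with a ceiling of 40 cycles, with late values missing, without the filter and under the equal-variance test. TAK1 lay between -0.11 and 0.069 and BIRC2 between -0.097 and 0.083 without single plates. Against 118 higher and 49 lower genes, there were 71 and 134 on raw Ct, 77 and 136 with the global mean, 80 and 121 with the global median, 59 and 78 after quantile scaling, 66 and 72 after cyclic loess, 195 and 18 with 18S rRNA added, and 127 and 26 with GAPDH alone. Without single plates 96 to 113 genes were higher and 31 to 45 lower, with 31 lower without control replicate 1 and 32 without control replicate 3. TAK1 was -0.70, -0.63 and -0.55 with raw Ct, the global mean and the global median, 0.058 with cyclic loess, 0.067 with B2M added, 0.44 with 18S rRNA added and 0.16 with GAPDH alone. BIRC2 was -0.65, -0.57 and -0.49 with the first 3 of these, 0.50 with 18S rRNA added, -0.17 with ACTB alone and -0.020 with Tuba1 alone. BIRC4 was -0.37, -0.30 and -0.22 with the first 3 and 0.77 with 18S rRNA added. NOD2 was -0.091 with quantile scaling and 0.025 with cyclic loess. The cause of these changes was not tested. Alternatives chosen after seeing the data were these settings applied to the lists and the other named genes, and the run day as a random block. With that block BIRC2 was -0.0038 and no other of the 6 genes changed its call or direction. The groups shared no run day, so the block cannot separate run from plasmid. Its correlation within a run day was -0.33, and standard errors were smaller with it (for NOD1 0.27 against 0.42). Of the list genes, TRAF3 was 0.13 with 18S rRNA added. CASP8 was -0.085 on raw Ct and -0.012 with the global mean. SIGIRR was -0.34, -0.27 and -0.19 on raw Ct and with the global mean and median, -0.25 with quantile and -0.12 with cyclic loess scaling. IKBKG was 0.070 with 18S rRNA added. CHUK was -0.61, -0.53, -0.46 and -0.14 with raw Ct, the global mean, the global median and ACTB alone, and -0.039 and -0.0021 without NOD1 replicates 2 and 3 (up to 0.18 without single plates). IKBKB was 0.019, 0.39 and 0.12 with B2M added, 18S rRNA added and GAPDH alone, and 0.044 without NOD1 replicate 1. PTPRC was 0.10, 0.48 and 0.20 with the same 3 scalings, and 0.087, 0.019 and 0.0046 without control replicate 3, NOD1 replicate 1 and NOD1 replicate 3 (down to -0.083 without single plates). Replicate numbers did not pair the plates (correlations of same-numbered plates 0.11, 0.031 and -0.022 over genes), and not every plate correlated best with its own number. With a replicate block, 111 genes were higher and 40 lower, NOD1 stayed at 8.59 (adjusted p = 0.00412), NOD2 at 1.08 (0.00825) and RIPK2 at -0.92 (0.0190), and TAK1 (0.810), BIRC2 (0.958) and BIRC4 (0.241) did not pass. The 3 plates per group and the single well per gene limit the precision, and no well of the 6 genes was near the ceiling.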
